A study of Mus musculus with 2 samples.

Results

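Across the cells sorted from E12.5 mouse brain, Kdr, the main signalling receptor for vascular endothelial growth factor (VEGF), was highest in endothelial-like cells, whereas Vegfa, its main ligand, was highest in fibroblast-like, osteogenic-like and cartilage-like cells. The sorted cells also included skeletal muscle-like and surface epithelium-like cells, so the sample was not of brain tissue alone. None of the 9 VEGF ligand and receptor genes differed by 1.5-fold or more between the Foxq1iECKO and Foxq1flox/flox libraries in endothelial-like cells. The 9 genes are the ligands Vegfa, Vegfb, Vegfc and Pgf, the receptor kinases Kdr, Flt1 and Flt4, and the co-receptors Nrp1 and Nrp2. They were chosen by gene symbol, and all were present among the 31253 genes of each library.

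1 library came from Foxq1iECKO brains and 1 from Foxq1flox/flox brains, both at E12.5 (midgestation) and both enriched with CD31 microbeads, which bind a surface protein of endothelial and some blood cells. FOXQ1 is a forkhead transcription factor. Foxq1flox/flox denotes 2 alleles flanked by sites that a recombinase can cut, and Foxq1iECKO is read here, from the endothelial FOXQ1 of the study's title, as the endothelial knockout of those alleles. The sources used here do not give the Cre driver, any inducing agent and whether the Foxq1flox/flox embryos also received it, the strain, or the number of embryos pooled in a library. The study's question concerns vessel growth in the central nervous system and the blood-brain barrier. The Foxq1iECKO library held 72445925 transcript tags with unique molecular identifiers (UMIs) over 15108 barcodes, and the Foxq1flox/flox library 76580165 UMIs over 15837 barcodes. After filtering and removal of predicted doublets, 12592 Foxq1iECKO and 13399 Foxq1flox/flox cells were used. The 2 libraries shared 270 barcode sequences, of which 173 were among the cells used of both; without them the log2 ratio of Kdr in endothelial-like cells, given below, was -0.17.

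VEGF-A signals mainly through the receptor encoded by Kdr (VEGFR-2), while the product of Flt1 (VEGFR-1) binds VEGF-A, VEGF-B and placental growth factor (Pgf) and acts largely as a trap in the embryo. VEGF-C signals through Flt4 (VEGFR-3), best known in lymphatic vessels, and can also engage VEGFR-2. Neuropilins bind VEGF as well as class 3 semaphorins. In the embryonic brain, VEGF-A made by the neural tissue draws vessels inward from the plexus on its surface.

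In the mm10 build (GENCODE M21 gene models), Kdr lies at chr5:75932827-75978458 on the minus strand and Flt1 at chr5:147561604-147726011 on the minus strand. Flt4 lies at chr11:49609263-49652739 on the plus strand, Nrp1 at chr8:128358604-128503363 on the plus strand and Nrp2 at chr1:62703285-62818695 on the plus strand. Of the ligands, Vegfa lies at chr17:46016993-46032369 on the minus strand, Vegfb at chr19:6982473-6987651 on the minus strand, Vegfc at chr8:54077606-54187096 on the plus strand and Pgf at chr12:85166635-85177790 on the minus strand. Vegfa has 8 protein-coding transcripts in this annotation, with coding lengths of 438 to 1176 bases. Flt1 has 2, a long form of 30 exons and a short form of 13 exons that ends at 147635159, inside the gene; a short Flt1 protein that lacks the kinase domain is known as the soluble receptor. Counts were summed per gene, so these forms are not told apart in any value given here.

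The 250 bases before the start of Kdr, Flt1 and Vegfa are shown because the first 2 genes share their peak in endothelial-like cells and the third is the ligand that both bind. They are RefSeq promoter windows on build GRCm38.p6, written 5′ to 3′ along the gene's strand, at chr5:75978456-75978705 for Kdr, chr5:147726012-147726261 for Flt1 and chr17:46032378-46032627 for Vegfa, the first of its 2 windows. Capitals mark matches, on either strand, to 4 short motifs: the forkhead core TGTTTA, the ETS core CCGGAA, the oxygen response core ACGTG and the SP1 core GGGCGG.
Kdr: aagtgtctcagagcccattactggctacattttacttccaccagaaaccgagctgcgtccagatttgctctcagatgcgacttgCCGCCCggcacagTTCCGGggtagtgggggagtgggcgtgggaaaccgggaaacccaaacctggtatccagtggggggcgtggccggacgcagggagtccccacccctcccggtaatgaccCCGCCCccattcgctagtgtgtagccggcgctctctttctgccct
Flt1: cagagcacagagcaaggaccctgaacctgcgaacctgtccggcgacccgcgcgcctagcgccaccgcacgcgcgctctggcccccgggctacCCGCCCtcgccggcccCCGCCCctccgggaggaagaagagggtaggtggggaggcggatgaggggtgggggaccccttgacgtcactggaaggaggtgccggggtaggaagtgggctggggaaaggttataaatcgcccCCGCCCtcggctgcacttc
Vegfa: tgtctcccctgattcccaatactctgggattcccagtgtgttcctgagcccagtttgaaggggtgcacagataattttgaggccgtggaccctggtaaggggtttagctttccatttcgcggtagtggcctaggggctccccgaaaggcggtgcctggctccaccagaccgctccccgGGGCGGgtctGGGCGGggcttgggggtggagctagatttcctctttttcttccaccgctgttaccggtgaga
The Kdr window held 1 ETS core and 2 SP1 cores, the Flt1 window 3 SP1 cores and the Vegfa window 2 SP1 cores. None of the 3 windows held the forkhead core or the oxygen response core; the second Vegfa window, at chr17:46025164-46025413 and not printed, held 1 oxygen response core and 1 SP1 core. Among 32851 RefSeq promoter windows of the same length, 12.0% held the forkhead core, 12.0% the ETS core, 16.6% the oxygen response core and 32.7% the SP1 core, so SP1 cores are common in promoters at large. A match is a string of letters only, and its absence says nothing of the factor.

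Both libraries were labelled as endothelial cells, yet cells with an endothelial marker profile were a minority. Endothelial-like cells were 13.0% [12.4, 13.6] of the Foxq1iECKO cells (1640 cells) and 18.0% [17.4, 18.7] of the Foxq1flox/flox cells (2416 cells), with 95% exact binomial intervals. Their 14 endothelial markers summed to 4507 CPM in the Foxq1iECKO library and 4789 CPM in the Foxq1flox/flox library, with none at 0 in either. CPM is a gene's UMI count scaled by all UMIs of the cells of a class. No VEGF gene was used as a marker, and the 9 were left out of the variable genes behind the clustering. A further cluster of 880 Foxq1iECKO and 497 Foxq1flox/flox cells held markers of both endothelial cells and pericytes, the mural cells that wrap capillaries; it is called the mixed cluster and was kept apart. Its median cell had 8841 UMIs in the Foxq1iECKO library and 9316 in the Foxq1flox/flox library, while the median endothelial-like cell had 4147 UMIs in the Foxq1iECKO library and 4478 UMIs in the Foxq1flox/flox library. Whether its barcodes hold more than 1 cell was not tested beyond the doublet call.

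Foxq1 itself was at 141 CPM [134, 148] in Foxq1iECKO endothelial-like cells and 432 CPM [422, 442] in Foxq1flox/flox ones, a log2 ratio of -1.61. Log2 ratios are the Foxq1iECKO level over the Foxq1flox/flox level throughout, and brackets after a level hold its 95% exact Poisson interval. Within the 8 endothelial-like subclusters described below, the log2 ratio of Foxq1 ranged from -2.32 to -0.69. It was -1.25 in the barrier-like subclusters together and -1.23 in the others together, nearer to 0 than the pooled value. In pericyte-like cells Foxq1 was at 539.9 CPM in the Foxq1iECKO library and 628 CPM in the Foxq1flox/flox library, a log2 ratio of -0.22. The labels do not say which part of Foxq1 is deleted, and 3′ tags outside that part would not report on it. With 1 library per genotype there is no replicate check, and all intervals cover counting error only.

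Vegfa, the ligand that drives most vessel growth, was led by connective tissue classes. Cartilage-like and osteogenic-like cells are not cells of brain tissue. The order of classes therefore describes the sorted sample and not the sources of Vegfa inside the brain. The osteogenic-like class came only from the later splitting of an unnamed cluster. Fibroblast-like cells had 182 CPM [174, 189] in the Foxq1iECKO library and 179 CPM [171, 186] in the Foxq1flox/flox library. Cartilage-like cells had 150.1 CPM in the Foxq1iECKO library and 154 CPM in the Foxq1flox/flox library. Radial glia-like cells, the neural progenitors of the brain wall, had 107 CPM in the Foxq1iECKO library and 104 CPM in the Foxq1flox/flox library, so the intervals of the genotypes overlapped in each of these 3 classes. Neuron-like cells were lower, at 55.7 CPM in the Foxq1iECKO library and 60.9 CPM in the Foxq1flox/flox library. Over both libraries the order ran from fibroblast-like (180.2 CPM) and osteogenic-like cells (176 CPM), whose intervals overlapped, down to endothelial-like (31.9 CPM), lymphoid and mast-like (26.2 CPM) and macrophage-like cells (11.9 CPM). Pericyte-like cells came after cartilage-like cells, at 126.9 CPM [113.3, 141.8] over both libraries. That was above radial glia-like cells, at 105.9 CPM [99.3, 112.8]. The log2 ratio of Vegfa in pericyte-like cells was -0.31, from 146 Foxq1iECKO and 168 Foxq1flox/flox UMIs. The lymphoid and mast-like class was led by the mast cell genes Cpa3 and Cma1. Its lymphoid markers Cd3e and Cd79a were each at 0.576 CPM in Foxq1iECKO and 0 CPM in Foxq1flox/flox cells. Il7r was at 87.6 CPM in Foxq1iECKO and 88.7 CPM in Foxq1flox/flox cells. The values of this class should therefore not be read as those of lymphoid cells.

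Vegfb, a ligand of VEGFR-1 linked to heart and fat metabolism, had a flatter spread. It was at 55.3 CPM in Foxq1iECKO macrophage-like cells and 53.6 CPM in Foxq1flox/flox ones, and at 52.7 CPM in Foxq1iECKO radial glia-like cells and 48.2 CPM in Foxq1flox/flox ones. The osteogenic-like cells, which headed the order at 72.2 CPM over both libraries, did not stand apart from macrophage-like cells, since their intervals of [55.0, 93.2] and [51.2, 58.0] overlapped. Endothelial-like cells were lowest of the 13 classes, with 12.47 CPM in the Foxq1iECKO library and 11.6 CPM in the Foxq1flox/flox library, and overlapped with the mixed cluster next above them.

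Vegfc, the ligand of VEGFR-3, was the one ligand led by endothelial-like cells when both libraries were summed. Their summed level was 28.8 CPM [26.8, 30.8], against 24.5 CPM [22.6, 26.5] in fibroblast-like cells. By library, endothelial-like cells had 24.7 CPM [21.8, 27.9] in the Foxq1iECKO library and 31.3 CPM [28.7, 34.1] in the Foxq1flox/flox library. Fibroblast-like cells had 23.0 CPM [20.4, 25.8] in the Foxq1iECKO library and 26.1 CPM [23.3, 29.1] in the Foxq1flox/flox library. The intervals of these classes thus overlapped within each library. Radial glia-like cells had 21.8 CPM of Vegfc in the Foxq1iECKO library and 27.6 CPM in the Foxq1flox/flox library. Lymphatic endothelial-like cells, named from Prox1, Mmrn1, Reln and Ccl21a although they had little of the lymphatic marker Lyve1 (16.8 CPM in Foxq1iECKO and 10.2 CPM in Foxq1flox/flox cells), held little of it, 8.24 CPM in the Foxq1iECKO library and 8.90 CPM in the Foxq1flox/flox library.

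Pgf, placental growth factor, was instead led by those lymphatic endothelial-like cells, at 69.5 CPM [60.1, 80.0] in the Foxq1iECKO library and 77.8 CPM [68.2, 88.4] in the Foxq1flox/flox library. Pericyte-like cells followed with 19.5 CPM in the Foxq1iECKO library and 20.2 CPM in the Foxq1flox/flox library, from 25 Foxq1iECKO and 24 Foxq1flox/flox UMIs. No Pgf UMI was found in osteogenic-like or surface epithelium-like cells of either library; 3 counts would be 6.26 CPM in the Foxq1iECKO and 8.88 CPM in the Foxq1flox/flox osteogenic-like cells, which is the limit this depth sets.

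**Figure D1:**
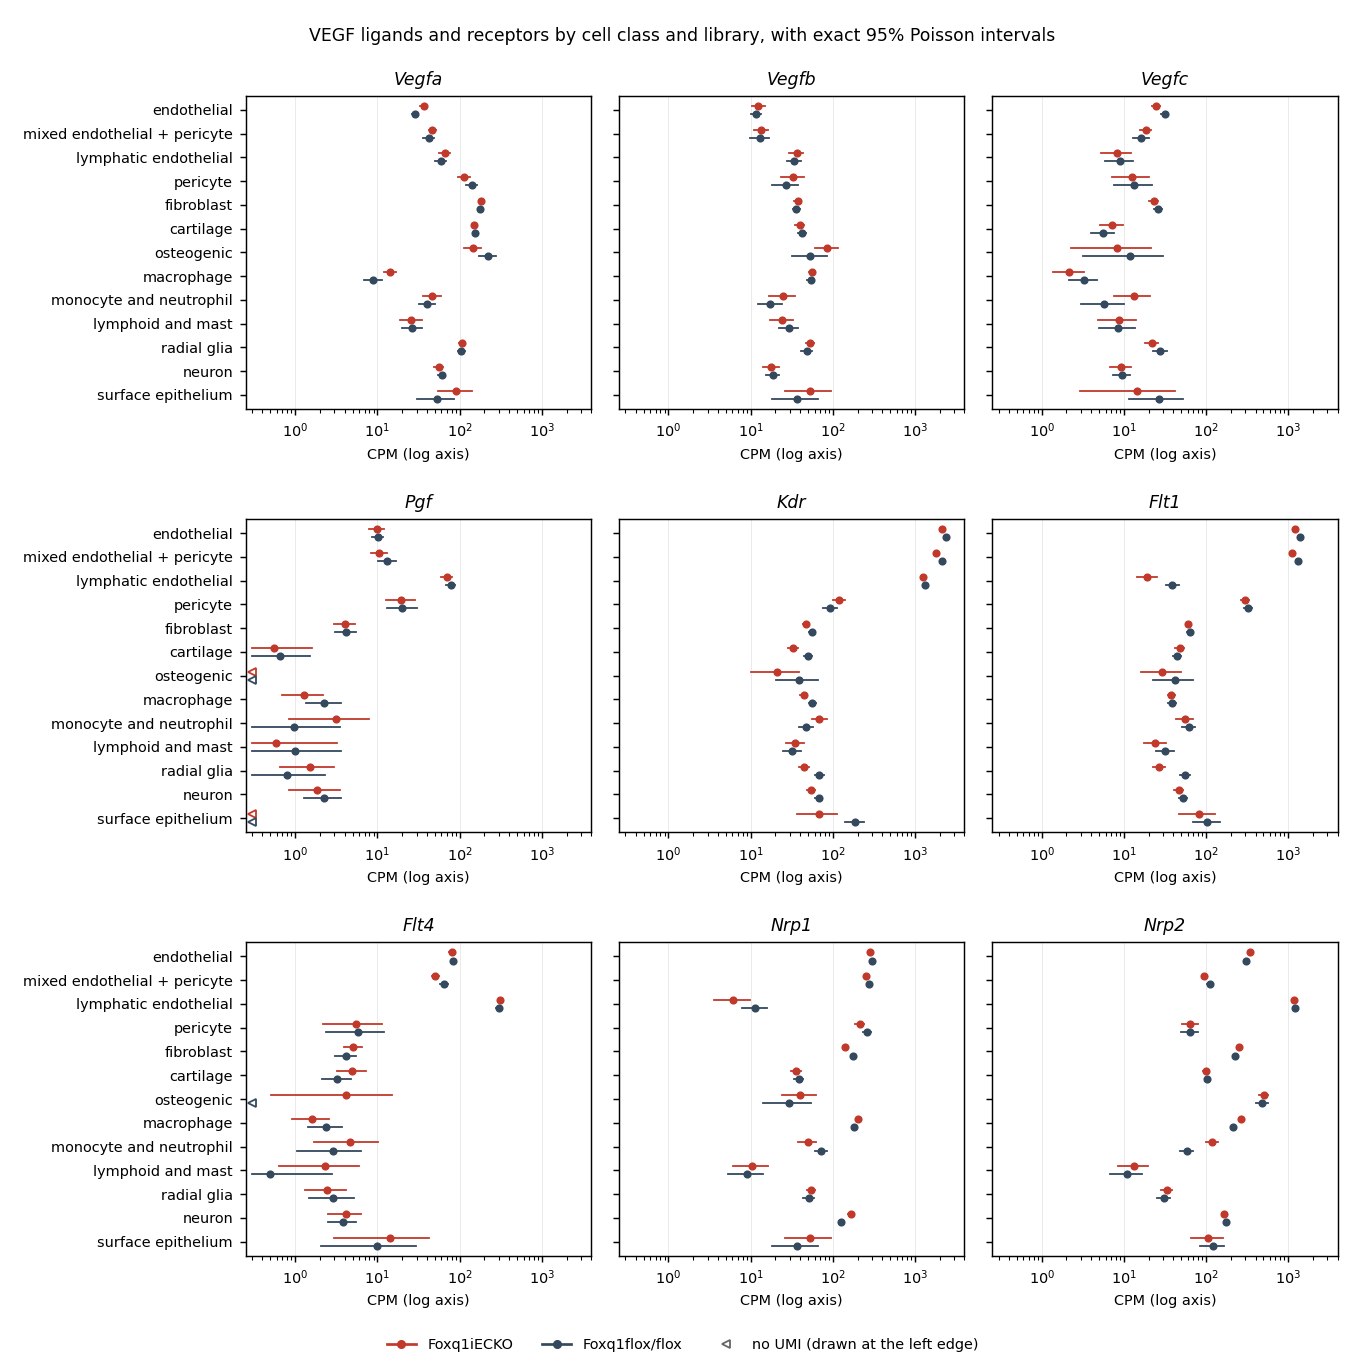
Level of each VEGF gene in 13 cell classes, in CPM on a log axis, with Foxq1iECKO in red above Foxq1flox/flox in dark blue; points are summed UMIs of 1 library, bars are exact 95% Poisson intervals and triangles mark classes with no UMI. Kdr and Flt1 peak in the endothelial-like rows, Flt4, Nrp2 and Pgf in the lymphatic endothelial-like row, and Vegfa is highest in the fibroblast, cartilage and osteogenic rows.

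Kdr had 2106 CPM [2078, 2134] in Foxq1iECKO endothelial-like cells and 2379.6 CPM [2356, 2403] in Foxq1flox/flox ones. The mixed cluster stood at 1811 CPM in the Foxq1iECKO library and 2136 CPM in the Foxq1flox/flox library, and lymphatic endothelial-like cells at 1266 CPM in the Foxq1iECKO library and 1318 CPM in the Foxq1flox/flox library. Pericyte-like cells were far lower, at 119.97 CPM in the Foxq1iECKO library and 92.4 CPM in the Foxq1flox/flox library. Elsewhere the level over both libraries was between 28.2 CPM, in osteogenic-like cells, and 137.6 CPM, in surface epithelium-like cells.

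Flt1 followed Kdr in the endothelium and parted from it in 2 neighbouring vessel classes. Endothelial-like cells had 1194 CPM [1174, 1215] in the Foxq1iECKO library and 1393 CPM [1375, 1411] in the Foxq1flox/flox library. In lymphatic endothelial-like cells Flt1 was at 19.4 CPM in the Foxq1iECKO library and 38.9 CPM in the Foxq1flox/flox library. That is 1.62% of its endothelial-like level in Foxq1iECKO and 2.79% in Foxq1flox/flox cells, while Kdr in the same cells stood at 60.1% of its own in Foxq1iECKO and 55.4% in Foxq1flox/flox cells. In pericyte-like cells the order was turned: Flt1 was at 299 CPM in the Foxq1iECKO library and 325 CPM in the Foxq1flox/flox library, or 25.0% of its endothelial-like level in Foxq1iECKO and 23.3% in Foxq1flox/flox cells, and Kdr at 5.70% of its own in Foxq1iECKO and 3.88% in Foxq1flox/flox cells. The 14 endothelial markers summed to 492 CPM in Foxq1iECKO and 506 CPM in Foxq1flox/flox pericyte-like cells. That is 10.9% of their endothelial-like sum in Foxq1iECKO and 10.6% in Foxq1flox/flox cells, above the Kdr shares and below the Flt1 shares. The part of such endothelial RNA in the receptor values was not tested. In pericyte-like cells there were 0.401 [0.330, 0.485] Kdr UMIs per Flt1 UMI in the Foxq1iECKO library and 0.284 [0.228, 0.352] in the Foxq1flox/flox library. In endothelial-like cells there were 1.76 [1.72, 1.80] in the Foxq1iECKO library and 1.71 [1.68, 1.74] in the Foxq1flox/flox library, outside the pericyte-like intervals of both libraries.

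Flt4 marked the lymphatic endothelial-like cells, with 314 CPM [293, 335] in the Foxq1iECKO library and 300.3 CPM [281, 320.5] in the Foxq1flox/flox library. Endothelial-like cells had 80.1 CPM in the Foxq1iECKO library and 83.5 CPM in the Foxq1flox/flox library, and the mixed cluster 50.7 CPM in the Foxq1iECKO library and 65.4 CPM in the Foxq1flox/flox library. The other 10 classes were at 11.8 CPM or below over both libraries.

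The 2 neuropilins reached well beyond the vessel classes. Nrp1 had 285 CPM in Foxq1iECKO endothelial-like cells and 303 CPM in Foxq1flox/flox ones. Macrophage-like cells had 201 CPM in the Foxq1iECKO library and 181 CPM in the Foxq1flox/flox library, and neuron-like cells 165 CPM in the Foxq1iECKO library and 126 CPM in the Foxq1flox/flox library. Lymphatic endothelial-like cells had 6.09 CPM in the Foxq1iECKO library and 11.2 CPM in the Foxq1flox/flox library, the lowest level over both libraries, overlapping with that of lymphoid and mast-like cells. Nrp2 had the opposite pattern in those cells, 1174 CPM [1134, 1215] in the Foxq1iECKO library and 1201 CPM [1162, 1240.2] in the Foxq1flox/flox library, and was next highest in osteogenic-like cells, at 505 CPM in the Foxq1iECKO library and 482 CPM in the Foxq1flox/flox library. Endothelial-like cells had 347 CPM of Nrp2 in the Foxq1iECKO library and 310.2 CPM in the Foxq1flox/flox library.

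Counted by where the UMIs lay, most Kdr and Flt1 UMIs were in endothelial-like cells and most Vegfa UMIs were not. Endothelial-like cells held 52.0% of all Kdr UMIs in the Foxq1iECKO library and 70.3% in the Foxq1flox/flox library, and the mixed cluster a further 34.4% in the Foxq1iECKO library and 17.8% in the Foxq1flox/flox library. For Flt1 the endothelial-like share was 52.2% in the Foxq1iECKO library and 72.0% in the Foxq1flox/flox library. Fibroblast-like cells held 40.5% of the Vegfa UMIs in the Foxq1iECKO library and 37.4% in the Foxq1flox/flox library, although they held 18.9% of all UMIs of the Foxq1iECKO library and 17.1% of those of the Foxq1flox/flox library. Endothelial-like cells held 6.76% of the Vegfa UMIs of the Foxq1iECKO library and 8.46% of those of the Foxq1flox/flox library, and 15.6% of all UMIs of the Foxq1iECKO library and 23.9% of those of the Foxq1flox/flox library. These shares follow the mix of cells after the sort as well as the level per cell, and the sort enriches endothelial cells by design.

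**Figure D2:**
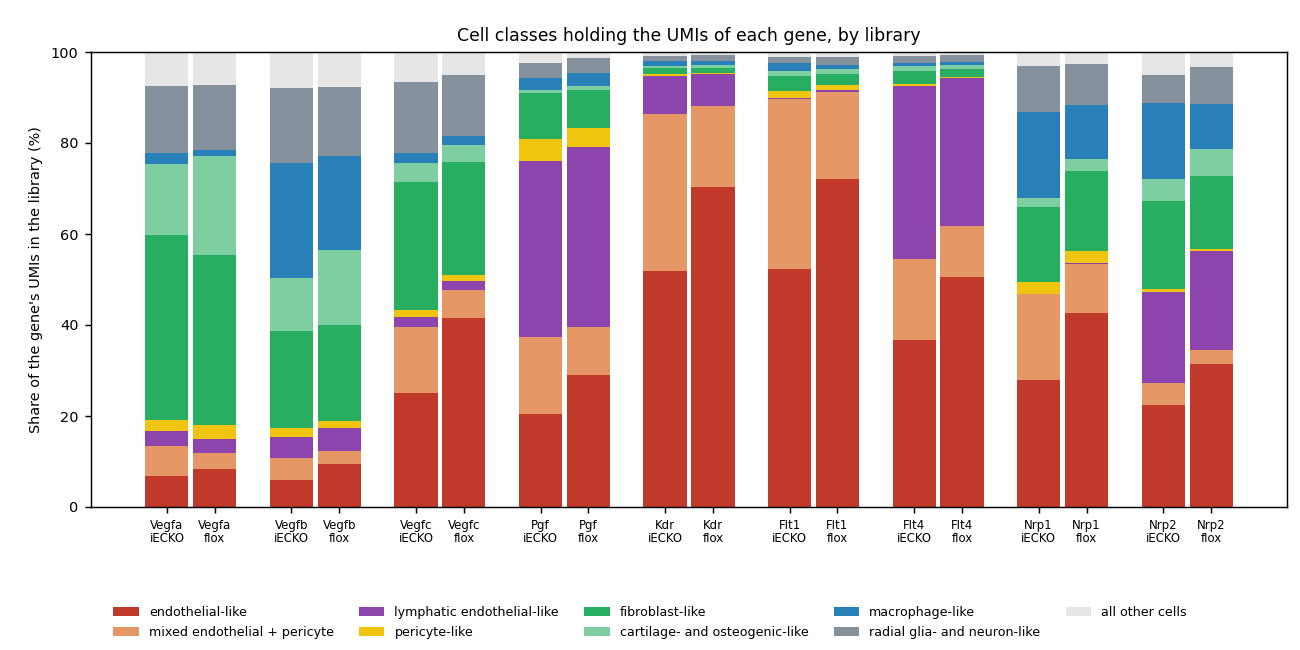
Share of each gene's UMIs, in percent of its UMIs in the cells used, by cell class, with the Foxq1iECKO bar left of the Foxq1flox/flox bar for each gene. Endothelial-like cells and the mixed cluster together hold most Kdr and Flt1 UMIs in both libraries, and the endothelial-like part is smaller and the mixed part larger in the Foxq1iECKO library.

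In endothelial-like cells none of the 9 genes was higher or lower by size, defined as a ratio of at least 1.5 with a 95% counting interval that excludes 1. Of the 7983 genes that reached 10 CPM in either library, 1.79% were past that rule, 0.777% higher and 1.01% lower in Foxq1iECKO, so a list of 9 genes with none past it is near the background. The mixed cluster also had 0 of 9 past it, where 2.79% of its genes were. Kdr had a log2 ratio of -0.18 [-0.20, -0.15] and Flt1 one of -0.22 [-0.25, -0.19]. Flt4 stood at -0.06 [-0.19, 0.06] and Nrp1 at -0.09 [-0.16, -0.03]. Nrp2 stood at 0.16 [0.10, 0.22], but its sign was negative in 4 of 15 other settings, and it was -0.17 when a coarser clustering joined the mixed cluster to the endothelial-like cells. Among the ligands Vegfa had a log2 ratio of 0.34 [0.15, 0.54] from 385 Foxq1iECKO and 490 Foxq1flox/flox UMIs, and Vegfc one of -0.34 [-0.56, -0.13] from 259 Foxq1iECKO and 530 Foxq1flox/flox UMIs. Vegfb stood at 0.11 [-0.22, 0.43] and Pgf at -0.05 [-0.42, 0.31]. The median over the 9 genes was -0.06, against -0.01 over all 7983 genes. Summed markers of red blood cells in the endothelial-like cells were 307 CPM in the Foxq1iECKO library and 439 CPM in the Foxq1flox/flox library, with 1 of the 9 at 0 in Foxq1iECKO and none in Foxq1flox/flox; without the subcluster led by haemoglobin genes the Kdr ratio was -0.20. The 12 pericyte markers summed to 349 CPM in Foxq1iECKO and 349.8 CPM in Foxq1flox/flox endothelial-like cells, with none at 0 in Foxq1iECKO and 1 in Foxq1flox/flox; 10 of the 12 had a level in Foxq1iECKO above that in Foxq1flox/flox cells, and their part in the ratios was not tested.

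**Figure D3:**
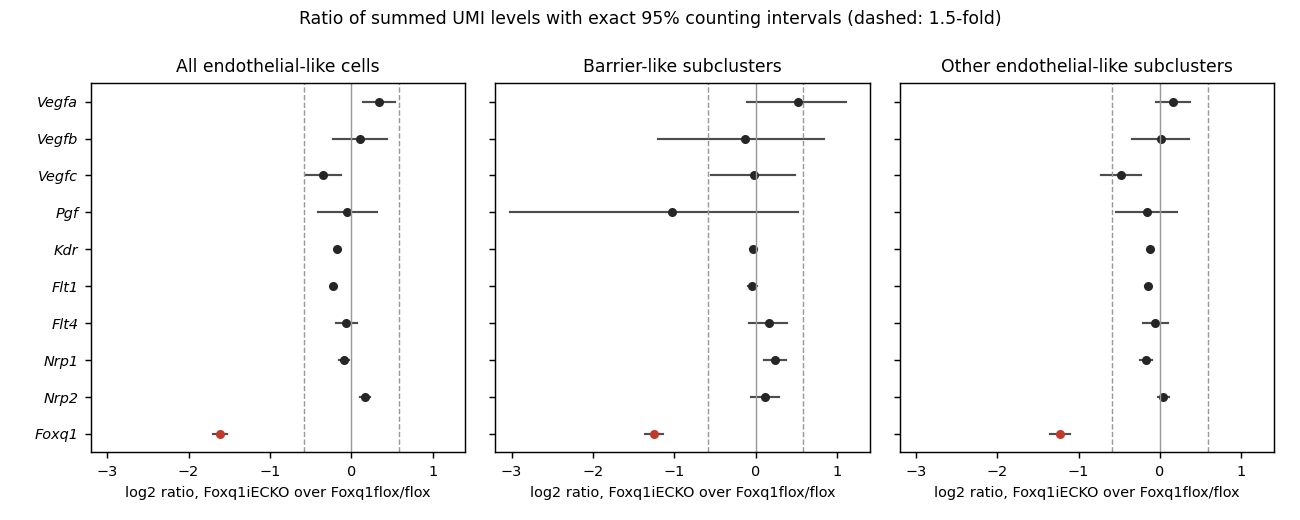
Log2 ratio of the Foxq1iECKO over the Foxq1flox/flox level for the 9 genes and Foxq1, in all endothelial-like cells, in the barrier-like subclusters and in the other subclusters; bars are 95% counting intervals of 1 library against 1 and dashed lines mark 1.5-fold. In all endothelial-like cells the 9 genes lie between -0.34 and 0.34, inside the dashed lines, while Foxq1 lies at -1.61.

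Re-clustering divided the endothelial-like cells into 8 subclusters, and Kdr spanned 1797 to 3562 CPM over them in the Foxq1iECKO library and 1814 to 3842 CPM in the Foxq1flox/flox library. 2 of them were named barrier-like from genes of the blood-brain barrier such as Slc2a1 and Mfsd2a, one led by Apod and Slc38a5 and the other by Cxcl12 and Fam13a; the second also held arterial markers. Kdr was highest in the barrier-like subcluster led by Cxcl12, at 3562 CPM [3391, 3739] in the Foxq1iECKO library and 3842 CPM [3697, 3991] in the Foxq1flox/flox library. The arterial-like subcluster, led by Gja5, came next at 2799.6 CPM in the Foxq1iECKO library and 3526 CPM in the Foxq1flox/flox library. The barrier-like subcluster led by Apod had 2724 CPM in the Foxq1iECKO library and 2863 CPM in the Foxq1flox/flox library. The interferon-like subcluster, led by Ccl2 and Iigp1, was lowest in both libraries, with 1797 CPM in Foxq1iECKO and 1814 CPM in Foxq1flox/flox cells.

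Flt1 was high in the same 2 subclusters, with 2347 CPM in Foxq1iECKO and 2404 CPM in Foxq1flox/flox cells of the barrier-like one led by Cxcl12. In the arterial-like subcluster it was at 2116 CPM in the Foxq1iECKO library and 2555 CPM in the Foxq1flox/flox library. Nrp1 was highest in the arterial-like subcluster, with 729 CPM in the Foxq1iECKO library and 692 CPM in the Foxq1flox/flox library. Nrp2 was lowest there, at 76.4 CPM in Foxq1iECKO and 64.4 CPM in Foxq1flox/flox cells, while the subcluster led by the early response genes Egr1 and Fos had 512 CPM in the Foxq1iECKO library and 456 CPM in the Foxq1flox/flox library. The arterial-like cells were thus high in Nrp1 and low in Nrp2 in both libraries. Vegfc was also highest in arterial-like cells, with 182 CPM [143, 227] in the Foxq1iECKO and 185 CPM [160.4, 212] in the Foxq1flox/flox library, while the barrier-like subcluster led by Apod had 13.1 CPM in Foxq1iECKO and 13.4 CPM in Foxq1flox/flox cells. The median cell of a subcluster ranged from 2093 to 8999 UMIs in the Foxq1iECKO library and from 2250 to 9869 UMIs in the Foxq1flox/flox library.

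**Figure D4:**
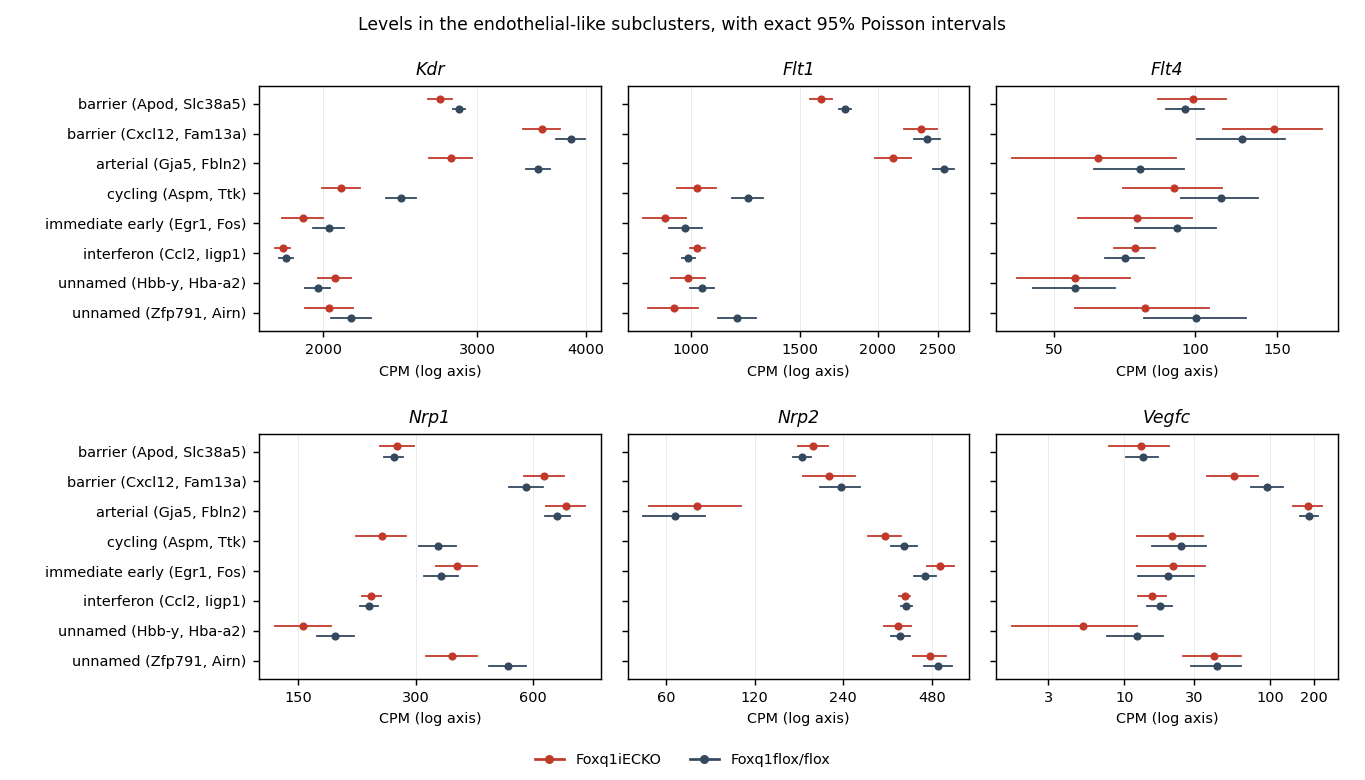
Levels of 6 of the genes in the 8 endothelial-like subclusters, in CPM on log axes of differing range, with Foxq1iECKO in red above Foxq1flox/flox in dark blue and exact 95% Poisson intervals. Kdr, Flt1 and Nrp1 are high in the arterial-like row and in the barrier-like row led by Cxcl12, Nrp2 is lowest in the arterial-like row, and Vegfc is highest there.

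Within subclusters the small pooled differences in Kdr and Flt1 varied in size. The 2 barrier-like subclusters together made up 23.4% of the Foxq1iECKO and 32.0% of the Foxq1flox/flox endothelial-like cells. In them Kdr was at 2925 CPM in the Foxq1iECKO library and 2988 CPM in the Foxq1flox/flox library, a log2 ratio of -0.03 [-0.07, 0.01], and Flt1 at 1796 CPM in the Foxq1iECKO library and 1852 CPM in the Foxq1flox/flox library, a log2 ratio of -0.04 [-0.10, 0.01]. The subcluster led by Cxcl12, with the higher Kdr level, held 173 of the 384 Foxq1iECKO and 255 of the 772 Foxq1flox/flox barrier-like cells. Within it Kdr had a log2 ratio of -0.11 [-0.20, -0.02], and within the one led by Apod Kdr had -0.07 [-0.12, -0.02] and Flt1 -0.13 [-0.19, -0.06]. Taken one by one, Kdr had a ratio below 1 in 7 of 8 subclusters and a counting interval wholly below 0 on the log2 scale in 4 of them, from -0.33 [-0.43, -0.24] in the arterial-like subcluster to 0.06 in the one led by Hbb-y. Flt1 also had a ratio below 1 in 7 of 8 subclusters, from -0.34 to 0.05. With the 8 subclusters given equal weight, the log2 ratio was -0.12 for Kdr and -0.15 for Flt1. Nrp1 stood at 0.24 [0.11, 0.37] in the barrier-like subclusters and at -0.18 [-0.25, -0.10] in the others; within the barrier-like subclusters led by Apod and by Cxcl12 its ratio was 0.02 [-0.14, 0.19] and 0.16 [-0.07, 0.38], and both intervals include 0. The median barrier-like cell had 3148 UMIs in the Foxq1iECKO library and 4602 UMIs in the Foxq1flox/flox library.

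Of 62 pairs of a VEGF gene and a subcluster with a level of 10 CPM or more, 2 were higher and 2 lower by size, all of them ligands with few UMIs; over all genes 2.78% of such pairs were higher and 2.8% lower. Vegfa was at 22.7 CPM (33 UMIs) in Foxq1iECKO and 14.0 CPM (66 UMIs) in Foxq1flox/flox cells of the barrier-like subcluster led by Apod, where 3.45% of genes were higher. Vegfb was at 30.5 CPM (23 UMIs) in Foxq1iECKO and 14.2 CPM (14 UMIs) in Foxq1flox/flox cycling cells, where 2.51% of genes were higher. Vegfa was at 11.6 CPM (8 UMIs) in Foxq1iECKO and 28.1 CPM (31 UMIs) in Foxq1flox/flox cells of the subcluster led by Egr1 and Fos, where 3.26% of genes were lower, so its 2 calls went in opposite directions. Vegfc was at 56.5 CPM (26 UMIs) in Foxq1iECKO and 95.7 CPM (66 UMIs) in Foxq1flox/flox cells of the barrier-like subcluster led by Cxcl12, where 2.33% of genes were lower.

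By cell, Kdr was nearly universal in the endothelium of both libraries. With each cell thinned to 2000 UMIs and shallower cells left out (299 of 1640 Foxq1iECKO and 353 of 2416 Foxq1flox/flox endothelial-like cells), 95.9% [94.7, 96.9] of the Foxq1iECKO and 97.5% [96.7, 98.1] of the Foxq1flox/flox endothelial-like cells had a Kdr UMI. Unthinned, the shares were 97.9% in the Foxq1iECKO library and 98.3% in the Foxq1flox/flox library. Neuron-like cells were taken as the background for the receptor kinases. They had a Kdr UMI in 7.0% of Foxq1iECKO and 9.91% of Foxq1flox/flox thinned cells, at median depths of 3221 UMIs in Foxq1iECKO and 3254 UMIs in Foxq1flox/flox cells. Whether these UMIs came from the neuron-like cells themselves was not tested. Flt1 was found in 85.1% of Foxq1iECKO and 87.3% of Foxq1flox/flox thinned endothelial-like cells, and in 6.46% of Foxq1iECKO and 8.34% of Foxq1flox/flox neuron-like cells. Flt4 was found in 16.2% of Foxq1iECKO and 17.4% of Foxq1flox/flox endothelial-like cells, and in 0.898% of Foxq1iECKO and 0.728% of Foxq1flox/flox neuron-like cells. Both Kdr and Flt1 were seen in 81.8% [79.6, 83.8] of the Foxq1iECKO and 85.1% [83.5, 86.6] of the Foxq1flox/flox endothelial-like cells. In lymphatic endothelial-like cells Kdr was found in 88.2% of Foxq1iECKO and 91.5% of Foxq1flox/flox cells. Flt1 was found there in 4.20% [2.03, 7.59] of Foxq1iECKO and 3.88% [1.87, 7.01] of Foxq1flox/flox cells, 10 cells in each library. The Foxq1iECKO interval overlapped that of the neuron-like share, [5.09, 8.07]. The Foxq1flox/flox interval lay below the neuron-like one, [7.10, 9.72].

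Outside the endothelial-like cells, 11 named classes had 50 or more cells in both libraries, and 76 pairs of a VEGF gene and a class had a level of 10 CPM or more. By size 3 pairs were higher and 6 lower in Foxq1iECKO. Over all genes 2.62% of such pairs were higher and 2.76% lower.

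Macrophage-like cells had 14.3 CPM of Vegfa [12.0, 16.8] in the Foxq1iECKO library (144 UMIs) and 8.91 CPM [6.96, 11.2] in the Foxq1flox/flox library (71 UMIs), a log2 ratio of 0.68, in a class where 3.14% of genes were higher. It was past the rule in 8 of 11 other settings and stood at 0.03 with doublets kept; 2 changes of the cell filter also ended the call. The class joined 2 clusters. The one led by F13a1 and Mrc1 (1250 Foxq1iECKO and 741 Foxq1flox/flox cells) had 18.9 CPM of Vegfa in the Foxq1iECKO library and 10.4 CPM in the Foxq1flox/flox library. The one led by P2ry12 (777 Foxq1iECKO and 747 Foxq1flox/flox cells) had 5.23 CPM in the Foxq1iECKO library and 7.22 CPM in the Foxq1flox/flox library, a log2 ratio of -0.46 [-1.41, 0.45]. Over both macrophage-like clusters together, 0 of 9 measured oxygen-regulated genes were past the rule, and their median log2 ratio was -0.16. In osteogenic-like cells, the other class with a Vegfa call, 1 of 10 was lower, with a median of -0.04. A link of these genes to Vegfa was not tested. In osteogenic-like cells Vegfa was at 144 CPM in the Foxq1iECKO library (69 UMIs) and 222 CPM in the Foxq1flox/flox library (75 UMIs), a log2 ratio of -0.62, with 4.5% of genes lower. With cells thinned to a fixed number of UMIs the ratio was -0.65 [-1.56, 0.26], so that the interval no longer excluded 1. Only 5 other settings gave a value for this class, and the call held in 4 of them. There was none with a looser cell filter, doublets kept, either other resolution or the VEGF genes among the variable genes. Nor was there one without the splitting of unnamed clusters. This class also joined 2 clusters, one led by Sp7 and Runx2 with 77 Foxq1iECKO and 42 Foxq1flox/flox cells, and one led by Ibsp, a bone matrix gene, with 4 Foxq1iECKO and 17 Foxq1flox/flox cells; over the class Ibsp was at 94.0 CPM in the Foxq1iECKO library and 3374 CPM in the Foxq1flox/flox library. In the cluster led by Sp7 alone the log2 ratio of Vegfa was -0.48 [-1.03, 0.08], not past the rule. Fibroblast-like cells, with the largest Vegfa total, had a log2 ratio of 0.03 [-0.06, 0.11].

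Monocyte and neutrophil-like cells, a class whose leading genes also include the lymphoid genes Il2rb and Il7r, had 118 CPM of Nrp2 in the Foxq1iECKO library and 57.9 CPM in the Foxq1flox/flox library, a log2 ratio of 1.03 [0.68, 1.39]. They also had 13.1 CPM of Vegfc (17 UMIs) in the Foxq1iECKO library and 5.79 CPM (12 UMIs) in the Foxq1flox/flox library, a log2 ratio of 1.18 [0.03, 2.38]. Of all genes in that class 3.54% were higher by size. The Nrp2 value was past the rule in 10 of 11 other settings but turned to -0.56 when predicted doublets were kept, and the Vegfc value was past it in 6 of 11 and turned to -0.19 in the lowest.

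The remaining calls were all of Kdr or Flt1, lower in classes that held less than 10% of the endothelial-like level of that gene. In radial glia-like cells Kdr was at 44.8 CPM in the Foxq1iECKO library and 68.6 CPM in the Foxq1flox/flox library, a log2 ratio of -0.62, and Flt1 at 26.5 CPM in the Foxq1iECKO library and 56.2 CPM in the Foxq1flox/flox library, a log2 ratio of -1.08, where 2.75% of genes were lower. The 14 endothelial markers summed to 77.9 CPM in Foxq1iECKO and 134 CPM in Foxq1flox/flox radial glia-like cells, with 14 of 14 lower in Foxq1iECKO and none at 0 in either library. The part of that difference in the receptor values was not tested. The Flt1 value was past the rule in 11 of 11 other settings and the Kdr value in 6 of 11. The Kdr ratio was -0.54 under either change of scaling, just under 1.5-fold, and -0.09 [-0.51, 0.33] with thinned cells. In the largest of the 6 radial glia-like clusters, led by Nr2e1 and Pax6, Kdr had a log2 ratio of -0.79 and Flt1 one of -1.30, both lower by size. In cartilage-like cells Kdr was at 33.0 CPM in the Foxq1iECKO library and 50.1 CPM in the Foxq1flox/flox library, a log2 ratio of -0.60, where 1.78% of genes were lower and the endothelial markers summed to 252 CPM in Foxq1iECKO and 279 CPM in Foxq1flox/flox cells; the call held in 5 of 11 other settings, and its ratio nearest to 0 was -0.41. In surface epithelium-like cells Kdr was at 67.0 CPM (14 UMIs) in the Foxq1iECKO library and 187 CPM (56 UMIs) in the Foxq1flox/flox library, where 4.15% of genes were lower and the endothelial markers summed to 235 CPM in Foxq1iECKO and 424 CPM in Foxq1flox/flox cells. Only 5 other settings gave a value for this class, and the call held in 4 of them. A coarser clustering ended the call, at a log2 ratio of -0.58. In lymphatic endothelial-like cells the Flt1 values given above had a log2 ratio of -1.01 [-1.50, -0.53], where 2.41% of genes were lower, and the call was lost with thinned cells and with a looser cell filter, the ratio nearest to 0 being -0.15.

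The genes around the receptors were read through 11 lists covering partners, adaptors, targets, transcription factors, oxygen sensing and ligand release. In endothelial-like cells 127 of 149 listed genes had 10 or more CPM, 0 were higher and 5 lower by size, beside 0.777% of all genes higher and 1.01% lower. The median log2 ratio over the 127 genes was -0.04, against -0.01 over all genes.

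Among adaptors and kinases, 2 of 26 measured genes were lower. Prkcb, a protein kinase C, was at 71.9 CPM in the Foxq1iECKO library and 115 CPM in the Foxq1flox/flox library. Hspb1, a heat shock protein phosphorylated downstream of VEGFR-2, was at 16.0 CPM in the Foxq1iECKO library and 24.0 CPM in the Foxq1flox/flox library. The small GTPase genes Cdc42 and Rac1, more abundant members of that list, had log2 ratios of -0.09 and 0.05. Of 17 immediate targets, 2 were lower, Nr4a1, an early response gene encoding a nuclear receptor, at 88.4 CPM in Foxq1iECKO and 148 CPM in Foxq1flox/flox cells, and Spry4, an inhibitor of receptor tyrosine kinase signalling, at 31.5 CPM in Foxq1iECKO and 49.9 CPM in Foxq1flox/flox cells. Both are also among the 10 leading genes of the subcluster led by Egr1 and Fos, which held 6.34% of the Foxq1iECKO and 6.79% of the Foxq1flox/flox endothelial-like cells. Dusp6, a phosphatase induced by the same pathway, was at 933 CPM in the Foxq1iECKO library and 1025 CPM in the Foxq1flox/flox library, a log2 ratio of -0.14. Of 13 later targets and sprouting genes, 1 was lower: Dll4, the Notch ligand of tip and arterial cells, at 43.9 CPM in the Foxq1iECKO library and 70.6 CPM in the Foxq1flox/flox library. Apln and Adamts1 from the same list stood at -0.18 and -0.15.

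In the barrier-like subclusters these 5 genes stood nearer to 0, with log2 ratios of -0.28 for Prkcb, -0.23 for Hspb1, -0.43 for Nr4a1, -0.21 for Spry4 and -0.17 for Dll4, against -0.68, -0.59, -0.74, -0.66 and -0.69 in all endothelial-like cells. With the 8 subclusters weighted equally they stood between -0.41 and -0.13. None of the 5 was past the rule at a coarser clustering or with the mixed cluster included, 1 was with thinned cells (Hspb1) and 1 when cells were gated singly by markers (Dll4).

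The other lists held no gene past the rule. Plexins and other neuropilin partners (6 measured) had a median log2 ratio of -0.05, phosphatases and receptor partners (8 measured) 0.01, and genes of receptor endocytosis (9 measured) -0.02. Factors that drive receptor genes (19 measured) had a median of -0.13, with Ets1 at -0.16, Fli1 at -0.09 and Sox7 at -0.27. Cdh5, the junction protein that binds VEGFR-2, was at 899 CPM in the Foxq1iECKO library and 1035 CPM in the Foxq1flox/flox library, a log2 ratio of -0.20, and at -0.42 [-0.51, -0.32] in the barrier-like subclusters. Oxygen sensing genes (7 measured) had a median of 0.01, with Hif1a at 0.01 and Epas1 at -0.25. Oxygen-regulated genes (12 measured) had a median of -0.07, with Slc2a1, which is also the glucose transporter of the barrier, at -0.48 in all endothelial-like cells and -0.07 in the barrier-like subclusters. Genes of ligand release and matrix binding (11 measured) had the highest median, 0.19, with Adam10 at -0.13 and Adamts1 at -0.15, the 2 most abundant, Ndst1 at 0.12 and Adam17 at 0.04. The median of that list was 0.13 in the barrier-like subclusters and 0.05 with the 8 subclusters weighted equally. Of the 7 listed class 3 semaphorins, 1 was measured in endothelial-like cells, Sema3g, at 63.0 CPM in the Foxq1iECKO library and 83.6 CPM in the Foxq1flox/flox library.

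**Figure D5:**
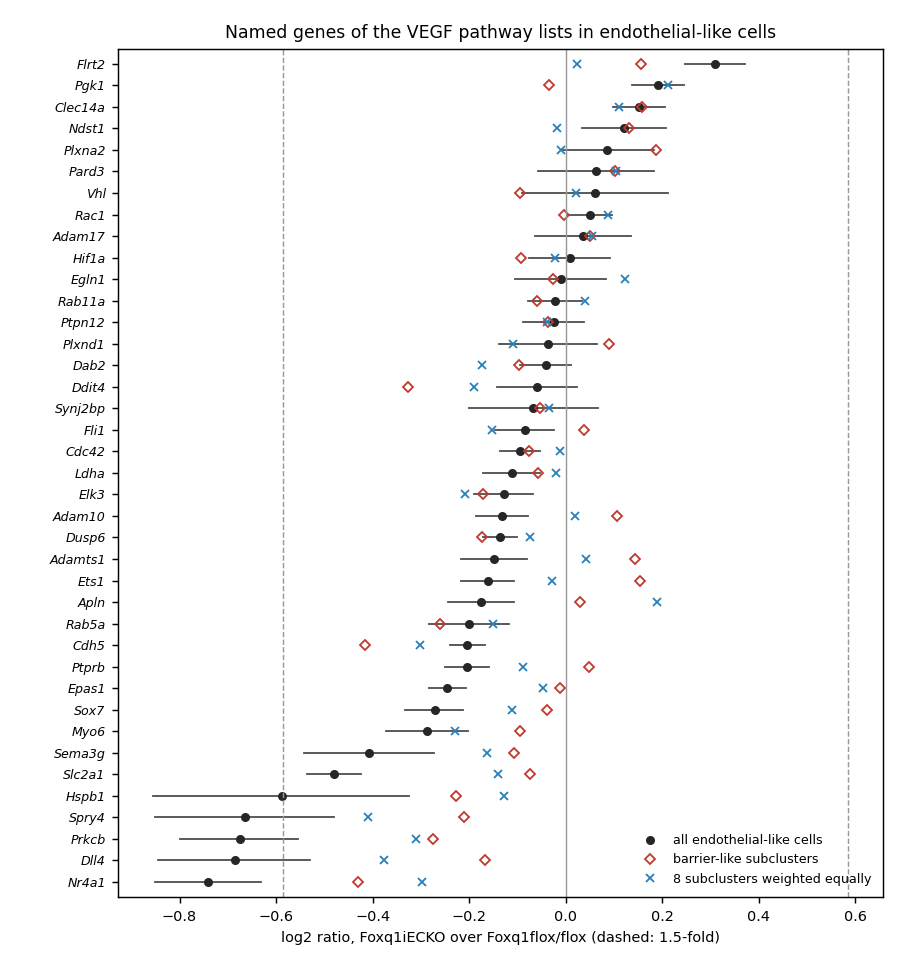
Log2 ratio of the Foxq1iECKO over the Foxq1flox/flox level for the named genes of the pathway lists, in all endothelial-like cells (black, with 95% counting intervals), in the barrier-like subclusters (red diamonds) and with the 8 subclusters weighted equally (blue crosses); dashed lines mark 1.5-fold. The 5 genes past the lower dashed line, Nr4a1, Dll4, Prkcb, Spry4 and Hspb1, all lie inside it in both other readings.

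Across 24 points, 12 named classes in each of the 2 libraries, the genes whose level followed a receptor most closely were other vessel genes. The level of Kdr followed Tie1 (Pearson r = 0.99), Cdh5 (0.981) and Rasip1 (0.98), that of Flt1 followed Esam (0.977), Emcn (0.954) and Epas1 (0.923), and that of Flt4 followed Myct1 (0.973), Myzap (0.97) and Klhl4 (0.97). Among the ligands, Pgf followed Angpt2 (0.933), Trpc6 (0.894) and Unc5b (0.893), while Vegfa followed Ccdc127 (0.914) and Pds5b (0.909). Nrp1, Nrp2, Vegfb and Vegfc had no gene above 0.861, 0.802, 0.753 and 0.785. Tie1, Cdh5, Esam and Emcn are among the endothelial markers that named the classes, so a close match to Kdr or Flt1 was partly built in. The points also share libraries and classes, so these values describe the pattern only.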

How the data were processed

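Single cells from 1 Foxq1iECKO and 1 Foxq1flox/flox library were sequenced as 3′ tags with UMIs after capture in microwells, per the labels' protocols. The deposited values are raw UMI counts per gene and barcode; per the submitters' processing notes, the tools were STARsolo 2.7.11b and fastp 0.24.0 and the build mm10, while the annotation and the barcode filter are not named in those sources. Every barcode held at least 500 UMIs. Of 31253 gene IDs, 31107 were found in GENCODE M21.

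Barcodes were kept from 500 genes and 1000 UMIs upward, with mitochondrial UMIs of 20% or less. Scrublet (scanpy 1.11.5, expected rate 8%) marked 3.94% of the Foxq1iECKO and 3.83% of the Foxq1flox/flox cells as doublets, which were left out. Cells of both libraries went into 1 clustering, with no correction between libraries, from 2000 variable genes, 30 components and 20 neighbours (Leiden, resolution 1; 0.6 within endothelial-like cells), with the 9 genes left out of the variable genes. A cluster took a class name from at least 3 markers that reached 50 CPM and exceeded all other cells 2-fold, and a cluster with 50% or more of an unrelated class's markers was called mixed. Unnamed clusters of 200 or more cells were split again, a choice made after seeing the data. Values are sums over cells with exact Poisson, binomial and conditional binomial 95% intervals, which cover counting error only; with 1 library per genotype no test between genotypes was made. A gene counted as measured at 10 CPM or more in either library, and as higher or lower by size at 1.5-fold with an interval that excludes 1. The size rule was also run on simulated Poisson counts with known folds. These hold no variation between libraries, so they cannot check the calls between genotypes. Of each pathway list up to 4 measured genes are named, first those past the rule and then the most abundant; up to 3 genes are named as most like each VEGF gene, by Pearson's r of log2(CPM + 5) among 7322 genes that reached 50 CPM in a class. Alternatives used size factors from DESeq2 1.42.0 and TMM from edgeR 4.0.16, among others. Red blood cell-like cells, planned as the background for ligands and neuropilins, formed no cluster, so for those genes only CPM is given. The genes and lists were chosen with earlier results of these data known.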

Additional observations from a re-analysis of the deposited data

How the results depend on the processing

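No paired analysis was possible because each genotype had 1 library. In endothelial-like cells 0 of the 9 genes were past the size rule under every alternative run, from other filters, scalings, resolutions and gates to a 1.3-fold rule. A 2-fold rule could not add a gene to this count. The log2 ratio of Kdr ranged from -0.23 to -0.12, that of Flt1 from -0.25 to -0.15, that of Vegfa from 0.21 to 0.37 and that of Vegfc from -0.40 to -0.21, while Nrp2, Pgf and Vegfb changed sign in 4, 3 and 1 of 15 settings. The count of pathway genes past the rule, 5 in the report, was 3 at resolution 0.6, when cells were gated singly by markers and when the mixed cluster was included, 1 with thinned cells and with subclusters weighted equally, 14 at 1.3-fold and 0 at 2-fold. Of the 5 named genes, 0 were among those at resolution 0.6, with the mixed cluster and with equal weights, and 1 among those of the gated and of the thinned cells. All 5 are past a 1.3-fold rule by definition. The 9 calls in other classes became 3 with a looser cell filter and 5 with doublets kept, with the VEGF genes kept among the variable genes and at 2-fold. Except at 2-fold, these settings gave no value for the calls in osteogenic-like and surface epithelium-like cells. The log2 ratio of Vegfb in osteogenic-like cells was 0.68, and -0.72 with thinned cells. Only 5 other settings gave a value for it. The causes were not tested. Settings without shared barcodes, without the haemoglobin-led subcluster and without splitting of unnamed clusters were added after seeing the data. In endothelial-like cells Pgf and Vegfb had the fewest UMIs of the 9 genes, and 1 library per genotype limits every comparison.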
